A study of Mus musculus with 9 samples.

Results

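The proteasome genes of mouse heart and quadriceps muscle were compared in RNA sequencing data of sham-operated mice. Members were the genes of the transcript table whose symbol begins with Psm, then one of the letters a to g, then a number. The rule matched 50 of 24537 gene names, with 60 of 35745 RefSeq transcripts, and for the 9 genes with several transcripts the one with the highest summed count was used. One match, Psmc3ip, is named after a proteasome gene but encodes a meiotic recombination factor, and it is given apart, which leaves 49 proteasome genes.

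The libraries came from sham heart (n = 3) and sham quadriceps (n = 3) of C57Bl6 mice that had sham surgery at 8 weeks of age and were killed 12 weeks later. The substrain was C57Bl/6JCrl. According to the study's methods the wild-type mice were male, and no allele or agent set the groups apart, so that tissue was the only labelled difference. The third group, quadriceps after transverse aortic constriction (TAC), was not analysed here because none of the members is in its table of secreted-protein genes. The labels give each library as a separate sample but do not say whether heart and quadriceps libraries with the same number came from 1 mouse, and p-values measure the spread between these samples.

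The 26S proteasome is the protease that degrades proteins tagged with ubiquitin in the cytosol and nucleus. Its 20S core is a barrel of stacked alpha and beta rings with the catalytic sites inside, and its 19S cap recognises, unfolds and feeds in the substrate with a ring of ATPases. In cells exposed to interferon the catalytic beta subunits can be replaced by immunoproteasome subunits, and in skeletal muscle the system is known for its part in protein loss during atrophy.

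To show the start regions of genes on both sides of the comparison, 5 promoter windows from RefSeq (GRCm38.p6, the build called mm10) are printed 5′ to 3′ on the strand of the gene. They belong to 2 pairs of catalytic subunits, constitutive Psmb5 with its immunoproteasome counterpart Psmb8 and constitutive Psmb6 with Psmb9, and to the activator gene Psme1. Each starts 250 bases before the start of the gene in RefSeq, and that of Psme1 runs past this start. The GENCODE vM21 annotation places the starts of Psmb5, Psmb8, Psmb9 and Psme1 further upstream. The whole printed windows of Psmb8, Psmb9 and Psme1 therefore lie inside the genes as GENCODE draws them. For Psmb5, which GENCODE starts at chr14:54618022, only the end of the window does. Capitals mark a match to TGACNNNGC, the core of the antioxidant response element bound by CNC factors such as Nfe2l1, or to 2 runs of GAAA with any 2 bases between them, the repeat recognised by interferon regulatory factors, on either strand.
Psmb5, chr14:54617996-54618245, minus strand: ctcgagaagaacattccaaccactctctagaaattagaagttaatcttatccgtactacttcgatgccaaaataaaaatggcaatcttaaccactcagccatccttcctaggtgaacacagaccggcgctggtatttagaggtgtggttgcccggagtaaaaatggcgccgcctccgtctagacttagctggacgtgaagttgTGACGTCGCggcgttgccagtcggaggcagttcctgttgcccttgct
Psmb8, chr17:34197945-34198194, plus strand: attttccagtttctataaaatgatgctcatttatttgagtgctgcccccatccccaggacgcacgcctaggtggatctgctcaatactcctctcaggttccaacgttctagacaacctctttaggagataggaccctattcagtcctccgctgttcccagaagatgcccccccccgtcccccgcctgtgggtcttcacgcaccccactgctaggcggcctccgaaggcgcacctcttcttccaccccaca
Psmb6, chr11:70525107-70525356, plus strand: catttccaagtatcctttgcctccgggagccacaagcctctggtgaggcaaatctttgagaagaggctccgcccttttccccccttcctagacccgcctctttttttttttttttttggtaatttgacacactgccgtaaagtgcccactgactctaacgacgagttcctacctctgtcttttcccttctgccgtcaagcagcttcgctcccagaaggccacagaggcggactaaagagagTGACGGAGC
Psmb9, chr17:34187331-34187580, minus strand: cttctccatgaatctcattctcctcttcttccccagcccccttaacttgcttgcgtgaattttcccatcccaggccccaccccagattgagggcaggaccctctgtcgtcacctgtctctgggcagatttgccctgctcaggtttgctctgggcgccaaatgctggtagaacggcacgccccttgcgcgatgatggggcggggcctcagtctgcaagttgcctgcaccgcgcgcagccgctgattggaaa
Psme1, chr14:55578244-55578513, plus strand: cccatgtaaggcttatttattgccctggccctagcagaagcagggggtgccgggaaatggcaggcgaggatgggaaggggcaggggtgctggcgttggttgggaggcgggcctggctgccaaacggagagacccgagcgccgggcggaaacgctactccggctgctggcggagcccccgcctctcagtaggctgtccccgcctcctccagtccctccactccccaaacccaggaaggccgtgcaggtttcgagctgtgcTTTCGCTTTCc
The windows of Psmb5 and Psmb6 each held TGACNNNGC, starting at position -47 and -9 from the RefSeq start. The window of Psme1 held the GAAA repeat on the opposite strand from position 10 after the RefSeq start. The windows of Psmb8 and Psmb9 held neither run of letters, and the bases before their GENCODE starts were not searched. Promoter windows of 300 bases were found for 42 members, of which 6 (14.3%) held TGACNNNGC, against 13.99% of the windows of all 27025 genes. The GAAA repeat was found for 5 members (11.9%), namely Psmb3, Psmd4, Psmd9, Psme1 and Psmg4, against 4.0% of all genes, and CCAAT for 15 members (35.7%) against 41.1%. None of the 3 motifs contains another, and a match describes the sequence only.

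Of the 49 proteasome genes 48 passed the filter on low counts (over 5 counts in 2 or more libraries) and 34 of them (70.8%) were higher in quadriceps at an adjusted p under 0.05 (quasi-likelihood test of edgeR, Benjamini-Hochberg adjustment, 24280 transcripts tested), where 32.2% of all transcripts tested were higher. Another 8 proteasome genes (16.7%) were lower in quadriceps, against 34.4% of all transcripts, and 6 did not pass the threshold. One of the 8, Psma8, passed the filter only through its heart counts, and Psmb11 had 0 counts in every library. All 34 higher genes encode constitutive subunits, activators or assembly factors, whereas the 3 immunoproteasome subunits and the activator Psme1 were among those lower.

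The size and sign of these differences depended on the scaling. The 10 most abundant transcripts held 11.5 to 12.0% of the counts in heart and 15.6 to 18.5% in quadriceps, and the TMM factors of edgeR were 1.29 to 1.31 in heart and 0.73 to 0.83 in quadriceps. With TMM the median log2 fold change of all transcripts (quadriceps minus heart) was -0.06, and with library totals alone it was -0.81. With library totals 9 proteasome genes were higher and 15 lower, where 13.3% of all transcripts were higher and 62.6% lower. As a raw share of all counts, the proteasome genes held 0.212 to 0.217% in heart and 0.197 to 0.233% in quadriceps, and these ranges overlapped. Since a scaling shifts all transcripts by about the same amount, distances from the median transcript hardly depend on it. The median of the 31 constitutive 26S subunits lay 0.96 above that of all transcripts with TMM and 0.96 with library totals, and all 31 were above it with either. In bulk tissue, fewer cells of a type and less RNA per cell cannot be told apart.

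**Figure D1:**
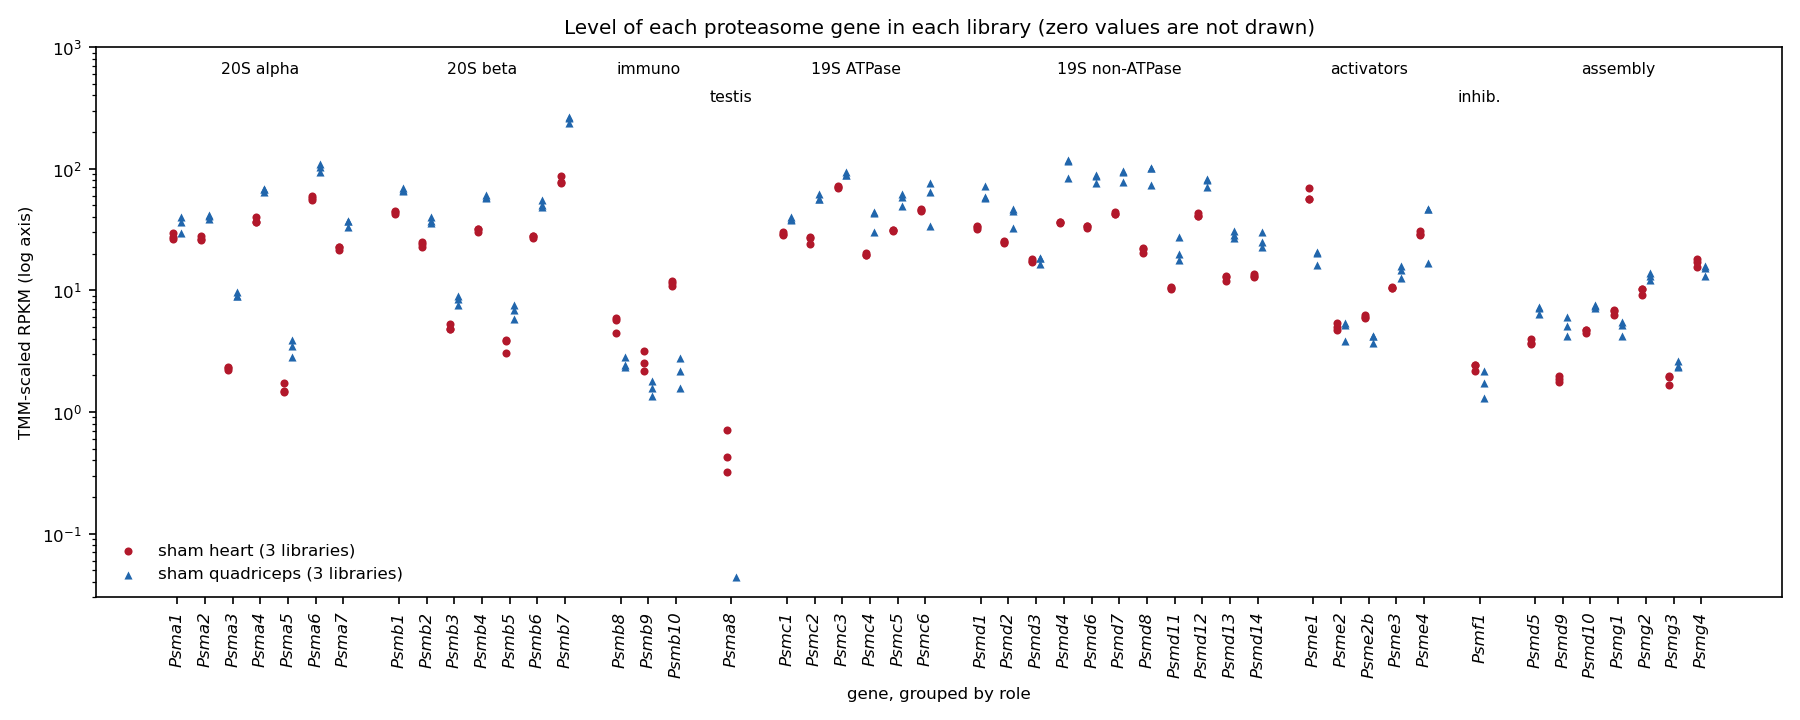
TMM-scaled RPKM (log axis) of each proteasome gene in each of the 6 libraries, with circles for sham heart and triangles for sham quadriceps, grouped by role. Psmb7 reached 238 to 264 in quadriceps, and the triangles of Psmb8, Psmb9, Psmb10 and Psme1 sit below their circles.

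Total counts were 33102826 to 38382751 per heart library and 23383452 to 32989108 per quadriceps library. Myh6, the main myosin heavy chain of adult mouse heart, reached 768767 to 933029 counts per heart library but 59 to 82 per quadriceps library, and Myh4, that of fast glycolytic fibers, had 32 to 50 and 559634 to 726121, so that each library carried the defining markers of its labelled tissue. The atrial light chain gene Myl7, singled out after its values were seen, had 2075, 164 and 3 counts in heart libraries 1, 2 and 3. Levels are given as TMM-scaled RPKM (counts per kilobase of transcript, relative to the TMM-scaled library size), which can be compared between genes.

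All 14 constitutive subunits of the 20S rings were higher in quadriceps with TMM, against 32.2% of all transcripts tested. With library totals 2 were higher (Psma3 and Psmb7) and none was lower, against 13.3% and 62.6% of all transcripts. Under that scaling the share higher was near that of all transcripts. In the beta ring Psmb7, which carries the trypsin-like activity, had the highest level of all members. Its TMM-scaled RPKM was 78.1, 76.9 and 86.2 in heart and 264, 262 and 238 in quadriceps. All quadriceps libraries lay far above the heart libraries, and the log2 fold change was 1.66 ± 0.11 (SE, adjusted p = 9.67e-07), or 0.91 with library totals. Exons of Nek6 overlap those of Psmb7 on the opposite strand. Counts of Nek6 itself were 84 to 89 (heart) and 185 to 278 (quadriceps), against 3551 to 3710 and 4034 to 6878 for Psmb7.

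Psmb6, the caspase-like subunit, had a TMM-scaled RPKM of 27.7, 28.1 and 26.8 in heart and 48.7, 54.7 and 50.2 in quadriceps (log2 fold change 0.90 ± 0.09, adjusted p = 2.61e-05). Psmb5, the chymotrypsin-like subunit, was at 3.81, 3.03 and 3.87 in heart and at 5.77, 7.63 and 6.92 in quadriceps (0.92 ± 0.16, adjusted p = 7.05e-04). Neither gene overlapped between the tissues with TMM, and with library totals their log2 fold changes were 0.14 and 0.17 and did not pass the threshold. The subunits without a catalytic site, Psmb1, Psmb2, Psmb3 and Psmb4, had log2 fold changes of 0.61, 0.66, 0.74 and 0.91 with TMM. With library totals those of Psmb1, Psmb2 and Psmb3 were -0.14, -0.10 and 0.00.

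In the alpha ring, which forms the gate of the core, the log2 fold changes ranged from 0.35 (Psma1) to 2.01 (Psma3) with a median of 0.83. Psma3 had a TMM-scaled RPKM of 2.36, 2.23 and 2.30 in heart and 8.97, 9.01 and 9.72 in quadriceps (2.01 ± 0.10, adjusted p = 1.74e-07). The difference was many times the spread within either tissue, and it was 1.26 with library totals. Psma6, the most abundant alpha subunit, was at 56.9, 55.1 and 59.6 in heart and at 109, 94.0 and 103 in quadriceps (0.83 ± 0.10, adjusted p = 5.89e-05). Psma2, Psma4, Psma5 and Psma7 had log2 fold changes of 0.58, 0.83, 1.13 and 0.69. On TMM-scaled values Psma1 was the only ring subunit that overlapped between the tissues, at 26.5 to 29.8 in heart and 29.6 to 40.4 in quadriceps. Its call (0.35 ± 0.13, adjusted p = 0.0322) was lost without heart library 1 (adjusted p = 0.0983), heart library 2 (0.114) or quadriceps library 3 (0.0640). It was also lost with upper quartile factors (0.0841), with no filter (0.0521), with at least 10 counts in every library (0.0730) and with library totals, where the sign turned (-0.39, adjusted p = 0.0525).

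The ring subunits stand in equal numbers in the assembled core, but their RNA levels did not. In heart the mean TMM-scaled RPKM of the 14 genes ran from 1.56 (Psma5) to 80.4 (Psmb7). The 4 lowest were Psma5, Psma3, Psmb5 and Psmb3 (1.56, 2.30, 3.57 and 4.97), and the next were at 22.3 and above. These 4 share sequence with other genes: of the windows of 50 bases, the read length, along their GENCODE vM21 transcripts, 54.5% (Psma5), 22.0% (Psma3), 50% (Psmb5) and 55.8% (Psmb3) also occur in genes elsewhere, mostly processed pseudogenes. Among all members 30 have no such window, 11 have over 10%, and the highest were Psme2b (69.3%) and Psme2 (59.3%), which share them with each other. Windows shared only with a gene that overlaps the member were left out of these shares. How the authors' counting treated reads that map to several places is not given in the sources used here, so the levels and fold changes of these 11 genes are uncertain. Among the 37 tested genes with at most 10%, 26 were higher and 6 lower with TMM, against 32.2% and 34.4% of all transcripts tested. Among the 23 such constitutive subunits 21 were higher and none lower with TMM, with a median log2 fold change of 0.91. With library totals 8 of the 37 were higher and 11 lower, and 7 of the 23 were higher and 2 lower (median 0.16). Under that scaling 13.3% of all transcripts were higher and 62.6% lower.

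**Figure D2:**
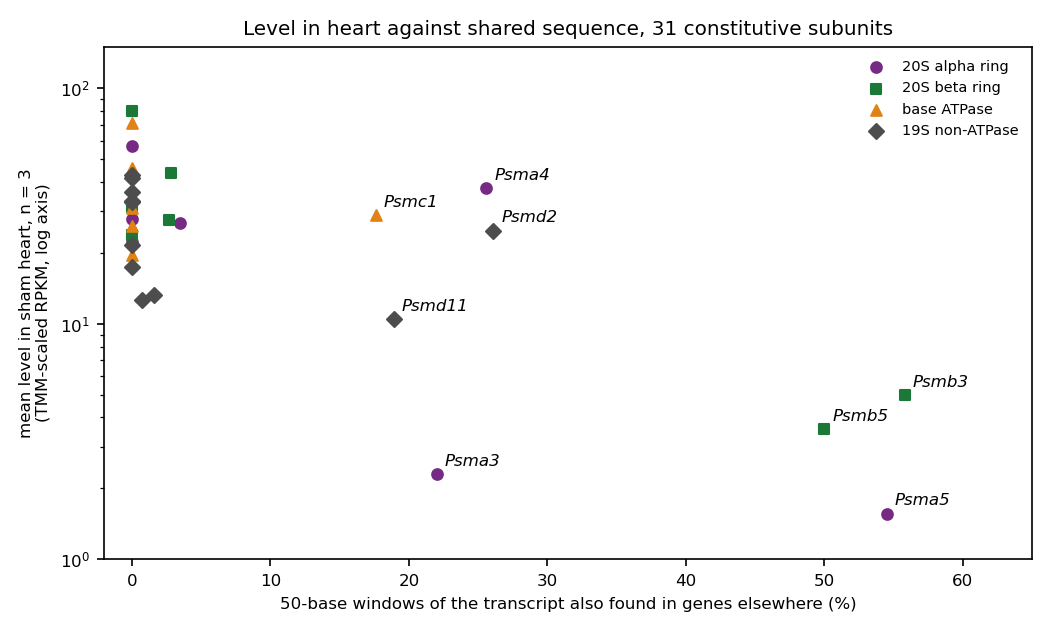
Mean level in sham heart (TMM-scaled RPKM, n = 3, log axis) of the 31 constitutive subunits against the percentage of their 50-base windows found in genes elsewhere, with one symbol per role. Psma5, Psmb5 and Psmb3, all at 50% or more, lie below 5 RPKM, whereas Psma4, at 25.6%, lies at 37.6.

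The 19S cap was higher as well, in 15 of 17 subunits with TMM, against 32.2% of all transcripts tested. With library totals 6 of 17 were higher and 3 lower, against 13.3% and 62.6% of all transcripts. Among the 11 non-ATPase subunits the log2 fold changes had a median of 1.05. The highest of all members was that of Psmd8, a subunit of the lid, with a TMM-scaled RPKM of 20.3, 22.3 and 21.9 in heart and 72.9, 102 and 101 in quadriceps (2.09 ± 0.14, adjusted p = 1.58e-06). With library totals it was 1.33 and still passed the threshold. Psmd4, which binds ubiquitin chains, had 35.9, 36.3 and 36.3 in heart and 84.2, 119 and 115 in quadriceps (1.55 ± 0.14, adjusted p = 8.63e-06). The heart libraries lay within 1 RPKM of each other, and those of quadriceps did not come near them.

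Psmd14, the deubiquitinase that removes the ubiquitin tag, was at 13.2, 12.9 and 13.6 in heart and at 22.7, 24.8 and 30.0 in quadriceps (log2 fold change 0.97 ± 0.12, adjusted p = 7.76e-05). Psmd7, its partner in the lid, had a log2 fold change of 1.06, and the lid subunits Psmd6, Psmd11, Psmd12 and Psmd13 had 1.33, 1.05, 0.91 and 1.19. Psmd1 and Psmd2, the large scaffold subunits of the base, had 0.92 and 0.74. Psmd3, also of the lid, stood apart from its neighbours, with a TMM-scaled RPKM of 17.4, 17.9 and 17.1 in heart and 16.4, 18.3 and 18.3 in quadriceps. Its log2 fold change was 0.01 (95% interval -0.20 to 0.23, adjusted p = 0.901), and with library totals it was lower in quadriceps (-0.74, adjusted p = 7.15e-05). No 50-base window of Psmd3 occurs in genes elsewhere.

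Of the 6 ATPases of the base, which unfold the substrate, 5 were higher with TMM, against 32.2% of all transcripts tested. Psmc2 had the largest difference, with a TMM-scaled RPKM of 27.2, 23.9 and 27.1 in heart and 56.2, 56.4 and 61.7 in quadriceps (1.16 ± 0.10, adjusted p = 7.86e-06). Psmc4 and Psmc5 had log2 fold changes of 0.99 and 0.86. Psmc1 (0.42 ± 0.09, adjusted p = 0.00229) and Psmc3 (0.35 ± 0.09, adjusted p = 0.00757) were higher with TMM but lower with library totals (-0.33 and -0.40, both past the threshold). Psmc6 depended on a single library. It was at 46.4, 45.2 and 45.8 in heart and at 76.6, 33.6 and 63.8 in quadriceps (0.34 ± 0.24, adjusted p = 0.241), and without quadriceps library 2 its log2 fold change was 0.62 (adjusted p = 6.74e-04).

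**Figure D3:**
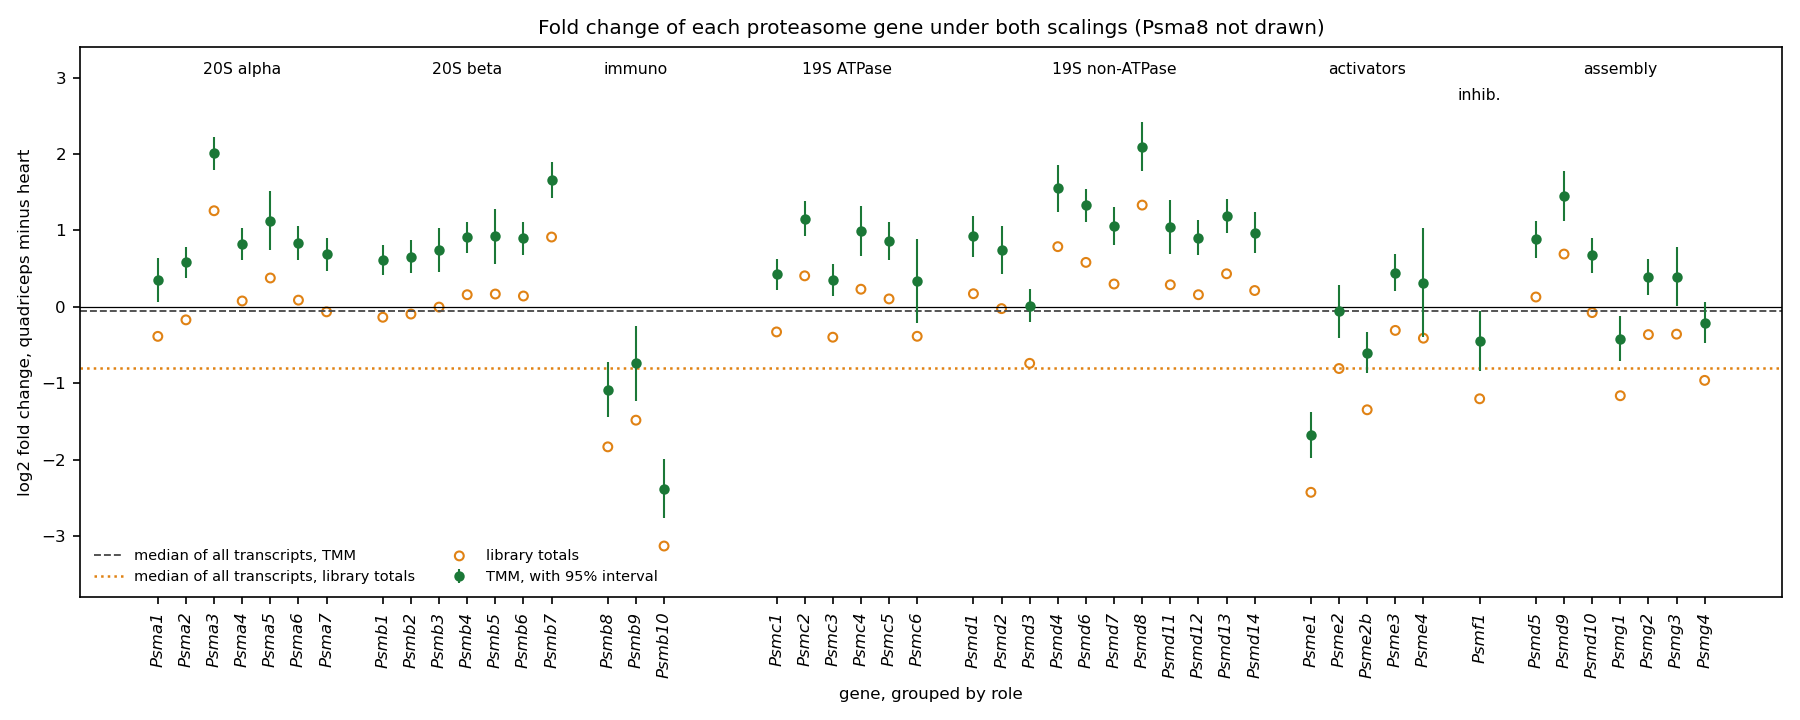
Log2 fold change (quadriceps minus heart) of the proteasome genes by role, with filled circles and 95% intervals for TMM and open circles for library totals, and with lines at the median of all transcripts under each scaling (-0.06 and -0.81). All 31 constitutive ring, ATPase and non-ATPase subunits lie above the line of their scaling, and the 3 immunoproteasome subunits lie below it.

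The 3 immunoproteasome subunits went the other way, and were lower in quadriceps with either scaling. Of all transcripts tested, 34.4% were lower with TMM and 62.6% with library totals. Psmb10, which takes the place of Psmb7, had a TMM-scaled RPKM of 11.6, 11.9 and 10.9 in heart and 2.19, 2.75 and 1.57 in quadriceps. The groups lay far apart, with a log2 fold change of -2.38 ± 0.17 (adjusted p = 2.10e-06), or 5.20-fold lower in quadriceps, and -3.13 with library totals. Psmb8, which takes the place of Psmb5, was at 4.42, 5.92 and 5.67 in heart and at 2.42, 2.34 and 2.84 in quadriceps (-1.08 ± 0.16, adjusted p = 2.46e-04). Psmb9, which takes the place of Psmb6, was at 2.53, 3.19 and 2.19 in heart and at 1.80, 1.36 and 1.56 in quadriceps (-0.74 ± 0.22, adjusted p = 0.0134).

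These are low counts, 22 to 39 for Psmb9 in quadriceps and 75 to 128 in heart, and the call of Psmb9 was lost without heart library 2 (-0.58, adjusted p = 0.0607). Psmb8 and Psmb9 lie on either side of Tap1 in the MHC region of chromosome 17, 9957 bases apart (Psmb9 at chr17:34181987-34187764, Psmb8 at chr17:34197721-34201454, GRCm38), and Psmb9 overlaps exons of Tap1 on the opposite strand. Psmb10 lies elsewhere, at chr8:105935735-105938444.

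The balance between each immunoproteasome subunit and the subunit it replaces was compared within each library, where scaling between libraries plays no part. Psmb10 made up 12.9, 13.4 and 11.2% of the counts per kilobase of Psmb10 and Psmb7 together in heart, and 0.82, 1.04 and 0.66% in quadriceps. The log2 ratio differed by -4.10 (-6.91 ± 0.34 against -2.81 ± 0.15, SD, n = 3 each), a 17.1-fold difference. For Psmb8 with Psmb5 the share was 53.8, 66.2 and 59.4% in heart and 29.5, 23.5 and 29.1% in quadriceps (3.98-fold lower ratio). For Psmb9 with Psmb6 it was 8.35, 10.2 and 7.55% in heart and 3.56, 2.43 and 3.01% in quadriceps (3.10-fold lower ratio). In each of the 3 pairs all quadriceps libraries were below all heart libraries. An exact two-sided permutation test gave p = 0.1 for each pair, adjusted p = 0.1 over the 3, which is the smallest p that 3 against 3 libraries allow, so the design could not reach 0.05. Levels of Psmb5 are uncertain for the shared windows given above, and so is the height of its ratio.

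**Figure D4:**
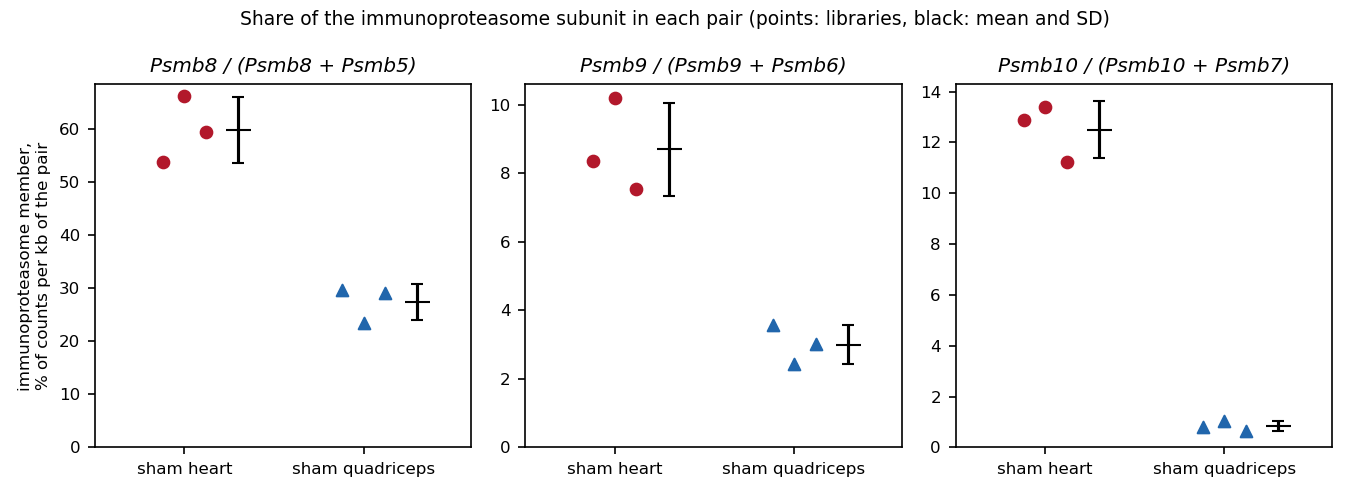
Share of the immunoproteasome subunit in the counts per kilobase of each catalytic pair, in percent, with 1 point per library and the mean and SD of 3 libraries in black. Psmb10 held 11.2 to 13.4% in heart and 0.66 to 1.04% in quadriceps, with no overlap.

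Among the activators, which open the core without ubiquitin, Psme1 had the highest level in heart and was lower in quadriceps with either scaling. Psme1 and Psme2 encode the alpha and beta chains of the interferon-inducible activator PA28 and are neighbours on chromosome 14, 5912 bases apart. Psme1 had a TMM-scaled RPKM of 56.8, 55.8 and 69.7 in heart and 20.1, 20.5 and 16.2 in quadriceps (log2 fold change -1.68 ± 0.13, adjusted p = 4.38e-06). All quadriceps libraries were below the heart libraries, by 3.20-fold, and 14.1% of its windows occur elsewhere. Psme2 was at 4.75, 5.01 and 5.35 in heart and at 5.37, 5.15 and 3.84 in quadriceps, and did not pass the threshold with TMM (-0.06, 95% interval -0.41 to 0.28, adjusted p = 0.737), whereas with library totals it was lower (-0.81, adjusted p = 0.00238). Psme2b, its near copy on chromosome 11, was lower (-0.60 ± 0.12, adjusted p = 0.00156), and reads of the 2 copies cannot be told apart over most of their length.

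Psme3, the nuclear activator PA28 gamma, had 10.5, 10.7 and 10.4 in heart and 12.7, 15.8 and 14.7 in quadriceps (0.45 ± 0.11, adjusted p = 0.00450). With library totals its difference was reversed (-0.31, adjusted p = 0.00975). Psme4, the large nuclear activator PA200, had 30.8, 28.9 and 28.2 in heart and 46.4, 16.8 and 46.3 in quadriceps. As for Psmc6, quadriceps library 2 was the low one. The log2 fold change of Psme4 was 0.32 (95% interval -0.40 to 1.03, adjusted p = 0.396) with all libraries and 0.66 (adjusted p = 2.91e-04) without it. Psmf1, which encodes the inhibitor PI31, was lower with all libraries (-0.45 ± 0.17, adjusted p = 0.0432), with 2.18 to 2.45 in heart and 1.31 to 2.18 in quadriceps. That call was lost when any of the 3 heart libraries or quadriceps libraries 1 or 2 was left out (adjusted p from 0.0619 to 0.118).

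The assembly factors moved less uniformly. The chaperones of the base, Psmd5, Psmd9 and Psmd10, were higher with TMM, and Psmd9 had the largest difference. Psmd9 had a TMM-scaled RPKM of 1.99, 1.85 and 1.77 in heart and 4.23, 6.05 and 5.05 in quadriceps (1.45 ± 0.14, adjusted p = 1.98e-05), while Psmd5 and Psmd10 had log2 fold changes of 0.88 and 0.67. Of the chaperones that build the alpha ring, Psmg1 was lower (-0.41 ± 0.13, adjusted p = 0.0199) and its obligate partner Psmg2 higher (0.39 ± 0.10, adjusted p = 0.00864). Psmg1 had 6.76, 6.27 and 6.85 in heart and 5.16, 5.48 and 4.17 in quadriceps, whereas Psmg2 had 9.22, 10.3 and 10.2 in heart and 13.0, 13.8 and 12.1 in quadriceps. Neither gene overlapped between tissues, but both calls depended on single libraries.

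The call of Psmg1 was lost without heart library 1 (adjusted p = 0.0640), heart library 3 (0.0683) or quadriceps library 3 (0.0846), that of Psmg2 without heart library 1 (0.0512), and with library totals Psmg2 was lower (-0.36, adjusted p = 0.0140). Psmg3 (0.39, adjusted p = 0.0690) and Psmg4 (-0.21, adjusted p = 0.146) did not pass the threshold with TMM, and with library totals Psmg4 was lower (-0.96, adjusted p = 5.93e-05). The shorter transcript of Psmg4 was lower (-0.55 ± 0.14, adjusted p = 0.00573), and the shorter one of Psmf1 was not past the threshold (-0.32, adjusted p = 0.104). In the other 7 genes with several transcripts, the transcript with the lowest summed count gave the same call as the one used.

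The members known from single tissues were near or below detection. Psma8, the alpha subunit of the testis proteasome, had counts of 57, 27 and 31 in the heart libraries and of 2, 0 and 0 in those of quadriceps. From the summed counts, relative to the TMM-scaled library sizes, it was 28.1-fold higher in heart (95% exact interval 7.60 to 235, which covers counting error only). With quadriceps set to 3 counts in all, the ratio was 18.7. Psmb11, the thymus subunit, had 0 counts in all 6 libraries, and a count of 0 allows up to 3 counts per library. Psmc3ip was at 1.79, 1.61 and 1.65 in heart and at 3.29, 1.65 and 2.59 in quadriceps (0.58, adjusted p = 0.0584), again with quadriceps library 2 lowest. That library was not low in every member. In log2 relative to the mean of quadriceps libraries 1 and 3, it was at -0.83 for Psmc3ip but at 0.38 for Psmd9 and 0.55 for Psmb10.

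The genes that work with the proteasome were read from lists, beside the shares of all transcripts tested (32.2% higher and 34.4% lower with TMM, 13.3% higher and 62.6% lower with library totals). Of 20 partner genes tested, 17 were higher in quadriceps and 1 lower with TMM (4 and 4 with library totals), with a median log2 fold change of 0.70. Vcp, the segregase that extracts ubiquitinated proteins, was at 2.24, 2.04 and 1.91 in heart and at 13.8, 17.2 and 19.1 in quadriceps (3.02 ± 0.14, adjusted p = 1.55e-07), and 60.1% of its windows occur in a pseudogene. Zfand5, which stimulates the 26S proteasome, was at 6.75, 5.78 and 6.72 in heart and at 24.3, 22.3 and 22.2 in quadriceps (1.84 ± 0.11, adjusted p = 5.64e-07). Neither pair of groups came close to overlapping, and both genes were higher with library totals too (2.26 and 1.09). Rad23b, a shuttle for ubiquitinated substrates, and the ligase Ube3c had log2 fold changes of 1.18 and 0.98, and Pomp, the chaperone of beta ring maturation, 0.73 (adjusted p = 2.30e-04). Of the ubiquitin genes and E1 enzymes that are reported, 2 of 5 were higher and none lower with TMM (2 and 2 with library totals), and with TMM the share higher was near that of all transcripts. The 2 higher genes were Rps27a (1.84) and Ubb (1.82), with 57.0 and 61.0% of their windows elsewhere.

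Of the 8 genes that regulate proteasome transcription 3 were higher and 3 lower with TMM (1 and 4 with library totals), again near the shares of all transcripts. Nfe2l1, the factor that raises proteasome genes when the proteasome is inhibited, was at 68.3, 67.6 and 66.8 in heart and at 83.7, 99.6 and 108 in quadriceps (0.52 ± 0.12, adjusted p = 0.00418), and with library totals its log2 fold change was -0.24. The CCAAT-box factor genes Nfyb and Nfya went in opposite directions (1.58 ± 0.12 and -1.09 ± 0.11). Foxo3, a factor of muscle atrophy, was lower in quadriceps, at 3.99, 4.60 and 3.90 against 1.05, 1.04 and 0.88 (-2.06 ± 0.13, adjusted p = 9.80e-07), and so was Stat3 (-1.71 ± 0.13, adjusted p = 3.77e-06).

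The genes of peptide loading onto MHC class I, the pathway fed by the immunoproteasome, were lower in quadriceps in 10 of 11 cases with either scaling, where 34.4% of all transcripts were lower with TMM and 62.6% with library totals, and the median log2 fold change was -1.01. The exception, named after its values were seen, was the class I heavy chain gene H2-K1 (0.45, adjusted p = 0.0547), and the other heavy chain gene, H2-D1, was called lower (-0.69, adjusted p = 0.0496) although its libraries overlapped between the tissues. Tap1, a chain of the peptide transporter, was at 1.23, 1.31 and 1.31 in heart and at 0.46, 0.29 and 0.44 in quadriceps (-1.69 ± 0.20, adjusted p = 5.20e-05). B2m, the light chain of class I molecules, was at 203, 267 and 174 in heart and at 115, 92.5 and 86.9 in quadriceps (-1.13 ± 0.17, adjusted p = 3.22e-04). In both genes every quadriceps library was below every heart library, and Tap2 (-1.61), Canx (-1.58) and Pdia3 (-1.21), which act in peptide transport and folding, were lower as well. Of 12 interferon response genes 8 were lower and none higher with TMM, against 34.4% of all transcripts lower, and 11 and none with library totals, against 62.6%, with a median log2 fold change of -0.97. The lower genes included Irf1 (-1.29 ± 0.12, adjusted p = 9.00e-06), a factor that induces immunoproteasome genes, the receptor chain Ifngr2 (-1.32 ± 0.10, adjusted p = 2.41e-06), Isg15 (-1.23) and Irf7 (-1.10). The other receptor chain Ifngr1 (-0.25), Ifit3 (-0.16), Irf8 (-0.05) and Ifit1 (0.08), named after their values were seen, did not pass the threshold with TMM.

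Markers of other cell types were read beside the immunoproteasome genes, and only the endothelial list was lower in every member with TMM. All 8 endothelial markers were lower in quadriceps with either scaling, against 34.4% of all transcripts with TMM and 62.6% with library totals. They had a summed TMM-scaled RPKM of 148 to 156 in heart and 54.0 to 60.8 in quadriceps. The median log2 fold change was -1.41, and Kdr (-2.13), Cdh5 (-1.56) and Pecam1 (-1.40) were among these markers. Of 14 leukocyte markers 12 were tested and 6 were lower and none higher with TMM, against 34.4% of all transcripts lower, and 11 and none with library totals, against 62.6%. Their summed level was 74.3 to 98.3 in heart and 43.8 to 64.9 in quadriceps, and Ptprc, which marks all leukocytes, was at 0.76, 0.83 and 0.78 in heart and at 0.45, 0.14 and 0.35 in quadriceps (-1.33 ± 0.30, adjusted p = 0.00350). Cd14, Csf1r and Laptm5 had log2 fold changes of -1.87, -1.38 and -1.07, whereas Cd68 (-0.43), H2-Aa (-0.31), Tyrobp (-0.27), Itgam (0.08), H2-Ab1 (0.39) and Cd74 (-0.70), named after their values were seen, did not pass the threshold with TMM. The T and B cell markers Cd3e and Cd79a did not pass the filter. Of 6 fibroblast markers 3 were lower with TMM (Lum, Col1a1 and Pdgfra), against 34.4% of all transcripts, and 6 with library totals, against 62.6%. The summed level of the 6 was 229 to 253 in heart and 172 to 237 in quadriceps, and these ranges overlapped. No marker of these lists was at 0 in all libraries of a group. The part of these cells in the lower levels of Psmb8, Psmb9, Psmb10 and Psme1 was not tested.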

How the data were processed

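RNA was isolated with the RNeasy mini kit, and libraries were made from polyadenylated RNA with the ScriptSeq v2 kit and sequenced as single reads of 50 bases. The authors used Trim Galore for trimming, STAR for alignment to the mm10 genome and Rsubread for counting. The deposited values used here are raw counts for each RefSeq transcript. Versions and the strand setting are not given in the sources used here. The deposited table also gives transcript lengths, which were used to compute TMM-scaled RPKM from the counts. Its own RPKM values and the authors' fold changes and p-values were not used.

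The 6 libraries entered 1 fit in edgeR 4.0.16 (R 4.3.3) with TMM, the quasi-likelihood test and Benjamini-Hochberg adjustment. Transcripts needed over 5 counts in 2 or more libraries. SE is the absolute log2 fold change divided by the square root of F, and 95% intervals use its degrees of freedom. Ratios were tested by exact two-sided permutation. Positions and 50-base windows come from GENCODE vM21 (GRCm38), with 35 of 50 transcripts within 20% of the RefSeq length, and promoters from RefSeq. No 2 replicates agreed within sampling noise (chi-square per degree of freedom at least 7.1). Exons of a gene on the opposite strand overlap, among others, Psmb7 (Nek6), Psmb9 (Tap1), Psmc3 (Slc39a13), Psmd13 (Sirt3), Psme1 (Emc9) and Psmd1 (Htr2b). Exons of a gene on the same strand overlap Psmb5 (Mir686), Psmd1 (Gm21972), Psme2b (9930111J21Rik1) and Psmg3 (Gm26938). Reads of such partners may not be told apart. Other scalings, filters and DESeq2 1.42.0 were tried as alternatives.

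Members and lists were chosen with earlier results of these data known. All members may be named, and of each list up to 4 called genes with the largest change, and those set beside a member. Sem1, Ecpas and Ufd1 were read under older symbols, and Paaf1 was not matched. One gene of the ubiquitin list is not reported here.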

Additional observations from a re-analysis of the deposited data

How the results depend on the processing

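With library totals instead of TMM, 9 proteasome genes were higher and 15 lower, in place of 34 and 8. Of the partner, regulator, ubiquitin, MHC class I and interferon genes together 7 were higher and 31 lower, in place of 22 and 22. With library totals 13.3% of all transcripts were higher and 62.6% lower, in place of 32.2% and 34.4%. Under that scaling the log2 fold change turned negative for Psma1 (-0.39), Psma2 (-0.17), Psma7 (-0.066), Psmb1 (-0.14), Psmb2 (-0.10), Psmb3 (-0.004), Psmc1 (-0.33), Psmc3 (-0.40), Psmc6 (-0.39), Psmd2 (-0.024), Psmd3 (-0.74), Psmd10 (-0.076), Psme3 (-0.31), Psme4 (-0.41), Psmg2 (-0.36), Psmg3 (-0.36) and Psmc3ip (-0.15), all by the change of scaling itself. The value near 0 of Psmd3 also turned with upper quartile factors (-0.071), without a filter (-0.022), with at least 10 counts in every library (-0.052), without heart library 3 and without quadriceps library 2, and that of Psme2 turned without quadriceps library 3. Leaving out 1 library gave -0.012 to 0.094 for Psmd3 and -0.12 to 0.088 for Psme2. The median of the constitutive subunits above that of all transcripts was 0.87 with at least 10 counts in every library, where fewer transcripts are tested, against 0.96, and 0.90 to 1.02 when 1 library was left out. Leaving out 1 library gave 32 to 36 higher and 6 to 7 lower proteasome genes, and differences in log2 ratio of -1.80 to -2.17 (Psmb8 to Psmb5), -1.48 to -1.77 (Psmb9 to Psmb6) and -3.93 to -4.27 (Psmb10 to Psmb7). DESeq2 called 34 proteasome genes higher and 6 lower, against 31.7% and 31.8% of all transcripts. With the replicate number as a block 34 were higher and 8 lower, and no call of a member changed. Deviations of same-numbered libraries correlated by -0.10 to 0.02. A weak correlation cannot show whether they came from 1 mouse, since an effect of the mouse need not appear in both tissues. The block left the ratios at -1.99, -1.63 and -4.10. The restriction to genes with at most 10% of windows elsewhere was chosen after seeing the data.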
